A study of Mus musculus with 8 samples.

Results

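The transforming growth factor beta (TGF-beta) genes described here were 9 listed symbols of the deposited count table, out of 31910 genes: the ligands Tgfb1, Tgfb2 and Tgfb3, the receptors Tgfbr1, Tgfbr2 and Tgfbr3, the intracellular SMAD genes Smad3 and Smad7, and the response gene Tgfbi. They were chosen by name, with earlier results of these data known, and all 9 had reads. The libraries were 8 RNA-seq libraries of frozen mouse liver, 4 from livers given the adeno-associated viral vector AAV2/9-SA (SA) and 4 from livers given AAV2/9-Ctrl (Ctrl). Per the series design, each mouse received 4.8e10 vector genomes through the tail vein after 7 weeks of feeding. Its title is about a protein of bacterial origin, its binding to acetyl-CoA carboxylase, and steatohepatitis, that is inflammation in a fatty liver. The series used a high-fat diet (60% fat) for 24 weeks, a diet with 42% fat and 0.2% cholesterol plus sugared water for 16 weeks, and chow. Which of these each library's mouse ate, and its strain, sex and age, are not given in the sources used here. The labels do not expand SA or name the promoter of the vector. Nothing in them says that the libraries come from 8 separate animals. All p-values therefore rest on the spread between these samples, which may be technical.

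TGF-beta ligands are secreted in a latent complex bound to the matrix and act once released from it. The active dimer binds the type II receptor (Tgfbr2), which recruits and phosphorylates the type I receptor (Tgfbr1), while betaglycan (Tgfbr3) is a co-receptor that presents ligand, Tgfb2 in particular. The receptors phosphorylate Smad2 and Smad3, which enter the nucleus with Smad4, and Smad7 is an induced inhibitor that closes the loop. In injured liver the pathway is known for turning hepatic stellate cells, the vitamin A-storing cells beside the sinusoids, into collagen-producing cells.

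Total counts were 14114145 to 15922829 in 7 libraries and 28184001 in SA 4. The share of reads from mitochondrial genes was 9.23% in Ctrl 4 and 3.55% to 4.87% elsewhere. Hepatocyte markers such as Alb were abundant in all 8 libraries (summed 58587 to 93121 CPM, counts per 1000000 reads). The libraries of Ctrl were spread more widely than those of SA: for the median tested gene the SD of log2 CPM was 0.32 in Ctrl and 0.21 in SA.

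None of the 8 TGF-beta genes that could be tested passed the threshold between SA and Ctrl (edgeR quasi-likelihood test, Benjamini-Hochberg adjusted p under 0.05 over 12358 genes), against 0.0162% of all genes. DESeq2 and limma-voom also called none of them. At an unadjusted p under 0.05 there were 2 of 8, Tgfbi and Tgfb2, both lower in SA, against 3.29% of all genes lower at that level. The median log2 fold change of the 8 was -0.25, beside -0.01 for all genes tested, with 6 of 8 negative, where 51.3% of all genes were negative. Tgfb3 did not pass the filter on low counts.

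**Figure D1:**
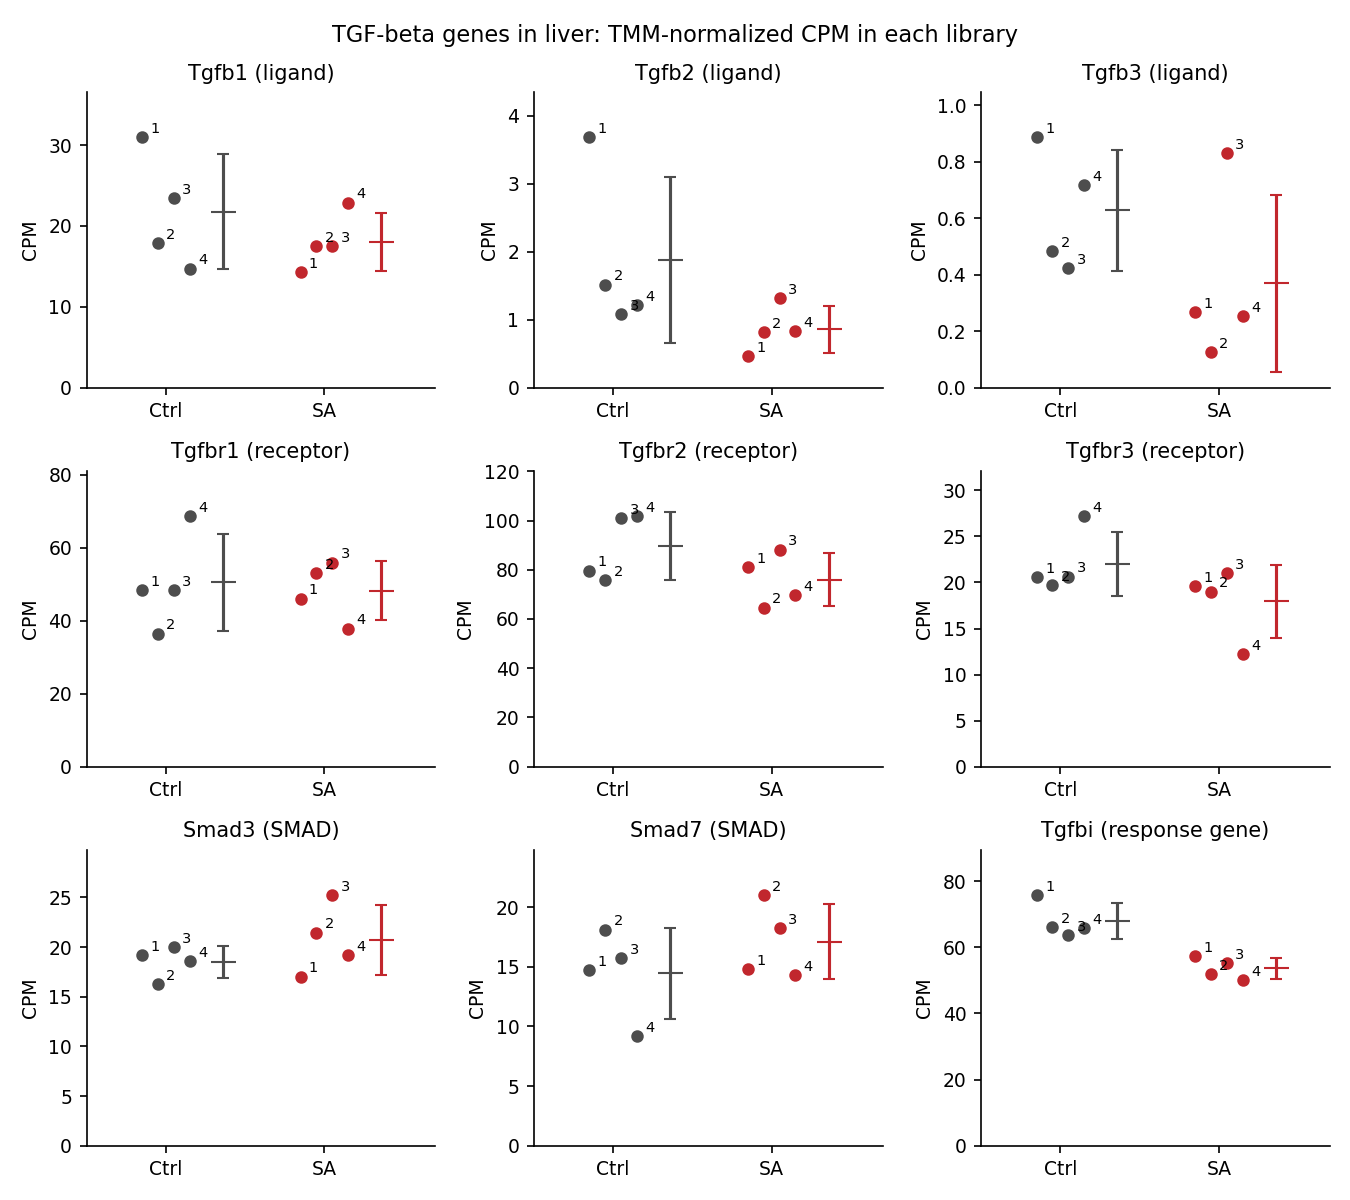
TMM-normalized CPM of each TGF-beta gene (y axis, from 0, a separate scale in each panel) in the 4 Ctrl (grey) and 4 SA (red) libraries (x axis), with points numbered by library and the bar giving the mean and SD. Only for Tgfbi do the groups not overlap, with SA at 50.1 to 57.3 CPM and Ctrl at 63.6 to 75.8 CPM.

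Of the ligands, Tgfb1 encodes the isoform best known from liver injury, made by macrophages, endothelial cells and platelets among others. Its level was 31.0, 17.9, 23.5 and 14.7 CPM in Ctrl 1 to 4 and 14.3, 17.5, 17.5 and 22.9 CPM in SA 1 to 4. The groups overlapped, and Ctrl held both the highest library and the second lowest. Means were 21.8 ± 7.12 CPM for Ctrl against 18.0 ± 3.57 CPM for SA (SD, n = 4 in each). The log2 fold change was -0.27 ± 0.23 (SE; 95% interval -0.76 to 0.23; edgeR, adjusted p = 0.996). Without Ctrl 1 the log2 fold change was -0.05, and without Ctrl 4 it was -0.42.

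Tgfb2, the ligand that depends most on betaglycan, was far scarcer in the counts. Its level was 3.68, 1.52, 1.09 and 1.22 CPM in Ctrl 1 to 4 and 0.469, 0.813, 1.31 and 0.832 CPM in SA 1 to 4, resting on 111 reads in Ctrl and 62 in SA. Ctrl 1 stood above every other library. SA 3 lay above Ctrl 3 and Ctrl 4, and the other SA libraries lay below every Ctrl library. Group means were 1.88 ± 1.22 and 0.857 ± 0.347 CPM (SD, n = 4). The log2 fold change was -1.13 ± 0.47 (SE; 95% interval -2.14 to -0.12; edgeR, adjusted p = 0.743). Without Ctrl 1 it was -0.58 (edgeR, adjusted p = 0.998). Exons of Tgfb2 overlap those of the antisense gene Gm29491 in GENCODE M21. The library kit is not described as strand-specific, so their reads may not be told apart.

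The bases before the start site of Tgfb2 are shown because it is 1 of the 2 TGF-beta genes with an unadjusted p under 0.05, and those of Tgfbi follow for comparison. Both are the 250 bases before the start in RefSeq on GRCm38.p6, 5′ to 3′ on the strand of the gene, at chr1:186705990-186706239 (minus strand) for Tgfb2 and chr13:56609336-56609585 (plus strand) for Tgfbi. Capitals mark CAGAC or its reverse complement GTCTG, the core letters known to be bound by SMAD proteins.
Tgfb2: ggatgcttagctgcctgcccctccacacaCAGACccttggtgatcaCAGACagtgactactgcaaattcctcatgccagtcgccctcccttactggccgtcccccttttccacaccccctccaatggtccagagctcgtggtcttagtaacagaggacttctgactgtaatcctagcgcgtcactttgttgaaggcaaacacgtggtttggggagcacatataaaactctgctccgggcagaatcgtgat
Tgfbi: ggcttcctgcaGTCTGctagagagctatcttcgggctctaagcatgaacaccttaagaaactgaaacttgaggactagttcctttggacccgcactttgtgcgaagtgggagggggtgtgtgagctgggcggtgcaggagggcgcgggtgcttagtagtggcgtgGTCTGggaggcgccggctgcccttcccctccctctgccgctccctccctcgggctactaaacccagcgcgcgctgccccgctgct
Tgfb2 holds CAGAC at 221 and 204 bases before its start, and Tgfbi holds GTCTG at 239 and 85 bases before its start. The promoter table holds 7 windows for 6 of the TGF-beta genes, and 4 of the 7 windows held the letters on either strand: those of Tgfb2, Tgfbr2 and Tgfbi and the second of the 2 starts of Tgfbr1. The first Tgfbr1 start, Tgfb1 and Smad3 did not hold them. In the table as a whole, 42.2% of 32851 windows of this length did. TGANTCA, the AP-1 motif, was in none of the 7, against 6.75% of all windows. Tgfb3, Tgfbr3 and Smad7 were not in the table.

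Tgfb3, the third isoform, had few reads in the count table and has no FPKM value to set beside them. Ctrl 1 to 4 had 13, 7, 7 and 10 reads of it, and SA 1 to 4 had 4, 2, 12 and 7, or 0.627 ± 0.215 CPM for Ctrl and 0.369 ± 0.314 CPM for SA (SD, n = 4). SA 3 lay among the Ctrl libraries and the other SA libraries lay below all of them. Fitted without the low-count filter, its log2 fold change was -0.78 ± 0.63 (SE; adjusted p = 0.895 with edgeR). Its exons overlap 2 genes of the opposite strand, Gm37804 and Gm48008.

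Among the receptors, the type I receptor gene Tgfbr1 was at 48.5, 36.5, 48.4 and 68.7 CPM in Ctrl 1 to 4 and 46.1, 53.1, 55.9 and 37.9 CPM in SA 1 to 4. The Ctrl libraries spanned the whole SA range. SA over Ctrl gave a log2 fold change of -0.07 ± 0.19 (SE; 95% interval -0.49 to 0.35; edgeR, adjusted p = 0.996), and it had no stable sign: it was 0.11 without Ctrl 4 and 0.03 without SA 4.

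Tgfbr2, the ligand-binding type II receptor, was at 79.6, 76.0, 101.1 and 101.8 CPM in Ctrl 1 to 4 and 81.1, 64.6, 88.2 and 69.9 CPM in SA 1 to 4. Ctrl 3 and Ctrl 4 lay above every SA library, while Ctrl 1 and Ctrl 2 lay inside the SA range. The difference was -0.24 ± 0.15 on the log2 scale (SE; 95% interval -0.58 to 0.10; edgeR, adjusted p = 0.955).

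Tgfbr3, which encodes betaglycan, was at 20.6, 19.7, 20.6 and 27.2 CPM in Ctrl 1 to 4 and 19.6, 19.0, 21.02 and 12.2 CPM in SA 1 to 4. Apart from Ctrl 4 at the top and SA 4 at the bottom, the other 6 libraries lay between 19.0 and 21.02 CPM. In FPKM, Ctrl 4 was not at the top: it was at 5.15 FPKM, below Ctrl 3 at 5.54 FPKM. The log2 fold change was -0.30 ± 0.19 (SE; 95% interval -0.71 to 0.11; edgeR, adjusted p = 0.955), and it was -0.19 without Ctrl 4 and -0.16 without SA 4. Ctrl 4 is also the library with the high mitochondrial share and the lowest summed level of resident macrophage markers (322 CPM, against 571 to 834 CPM in the others). The part of these in the Tgfbr3 value was not tested. An unnamed gene model on the same strand, Gm43422, overlaps its exons.

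Smad3 encodes the SMAD that carries much of the fibrotic response and binds DNA directly. It was at 19.2, 16.3, 20.0 and 18.6 CPM in Ctrl 1 to 4 and 17.0, 21.5, 25.2 and 19.2 CPM in SA 1 to 4. SA 2 and SA 3 were above all Ctrl libraries, and SA 1 was below all but Ctrl 2. The difference was 0.16 ± 0.16 on the log2 scale (SE; 95% interval -0.18 to 0.51; edgeR, adjusted p = 0.996). It was 0.06 without SA 3 and 0.25 without SA 1.

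Smad7, the inhibitor that brings ubiquitin ligases to the receptor, was at 14.7, 18.1, 15.8 and 9.19 CPM in Ctrl 1 to 4 and 14.8, 21.02, 18.3 and 14.3 CPM in SA 1 to 4. Only Ctrl 4 was below the SA range. SA was higher by 0.24 ± 0.21 on the log2 scale (SE; 95% interval -0.23 to 0.71; edgeR, adjusted p = 0.996), and it was 0.07 without Ctrl 4, 0.13 without SA 2 and 0.37 without Ctrl 2.

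Tgfbi, named for its induction by TGF-beta, encodes a secreted matrix protein that binds collagens and integrins. Its level was 75.8, 66.3, 63.6 and 65.8 CPM in Ctrl 1 to 4 and 57.3, 51.8, 55.2 and 50.1 CPM in SA 1 to 4. Every SA library lay below every Ctrl library, which was so for 1 of the 8 tested TGF-beta genes and for 1.46% of all genes. Group means were 67.9 ± 5.43 and 53.6 ± 3.26 CPM (SD, n = 4). The log2 fold change was -0.34 ± 0.13 (SE; 95% interval -0.61 to -0.07; edgeR, adjusted p = 0.662), which is 0.790 times the Ctrl level. With DESeq2 the adjusted p was 0.506. In bulk liver, fewer cells of a type and less RNA per cell cannot be told apart. In the deposited FPKM table the Tgfbi groups overlapped, at 25.6 to 38.8 FPKM in Ctrl and 22.4 to 28.3 FPKM in SA, with means of 31.96 ± 6.42 and 25.5 ± 2.44 FPKM (SD, n = 4).

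**Figure D2:**
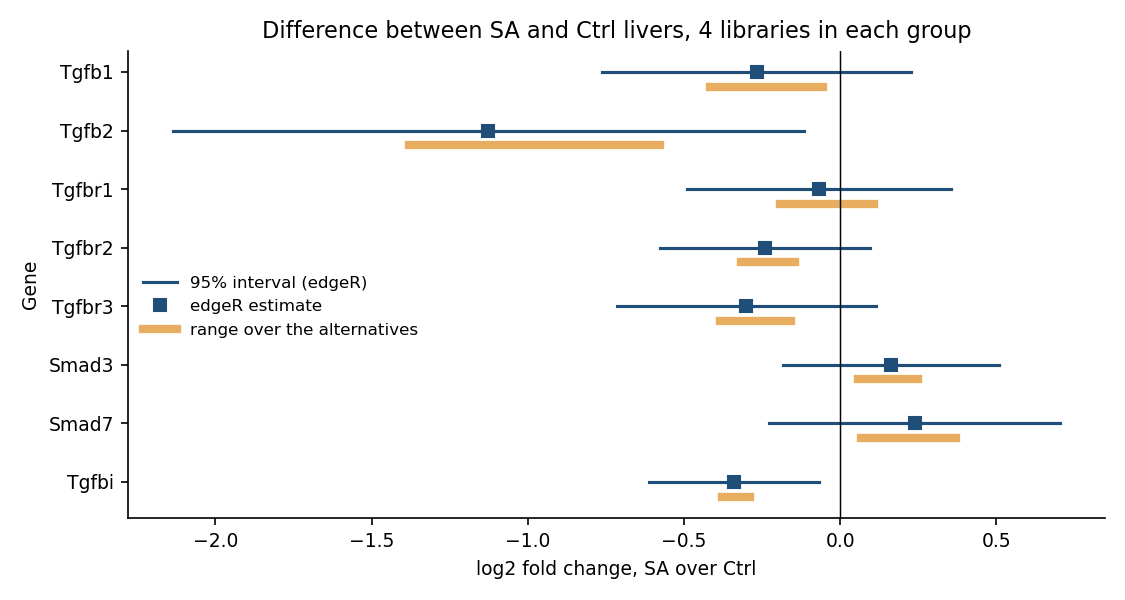
Log2 fold change of SA over Ctrl (x axis) for the 8 tested TGF-beta genes (y axis): the square is the edgeR estimate, the blue line its 95% interval and the orange bar the range over up to 18 alternative analyses. The interval excludes 0 for Tgfb2 (-2.14 to -0.12) and Tgfbi (-0.61 to -0.07), before any adjustment over genes, and the orange bar of Tgfbr1 crosses 0.

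The spread over libraries differed between the genes. Of the 8 tested genes, Tgfbi was the steadiest within groups, with a coefficient of variation of 8.0% in Ctrl and 6.1% in SA, and Tgfb2 the most variable, with 64.9% and 40.5%. Over all 8 libraries the SD of log2 CPM was 0.20 for Smad3 and for Tgfbi and 0.78 for Tgfb2, beside a median of 0.29 for all genes tested. Ctrl 1 was the highest library for Tgfb1, Tgfb2 and Tgfbi, by 0.68, 1.56 and 0.33 on the log2 scale above the gene mean. In the counts Ctrl 4 was the highest for the 3 receptors, by 0.50 for Tgfbr1, 0.31 for Tgfbr2 and 0.47 for Tgfbr3. It was the lowest for Smad7, at -0.74. In FPKM, Ctrl 4 was again highest for Tgfbr2 (12.3) and lowest for Smad7 (2.32), but not highest for the other receptors. For Tgfbr1 it was at 6.85 FPKM, below Ctrl 1 (11.2) and Ctrl 3 (12.1). For Tgfbr3 it was at 5.15 FPKM, below Ctrl 3 (5.54).

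**Figure D3:**
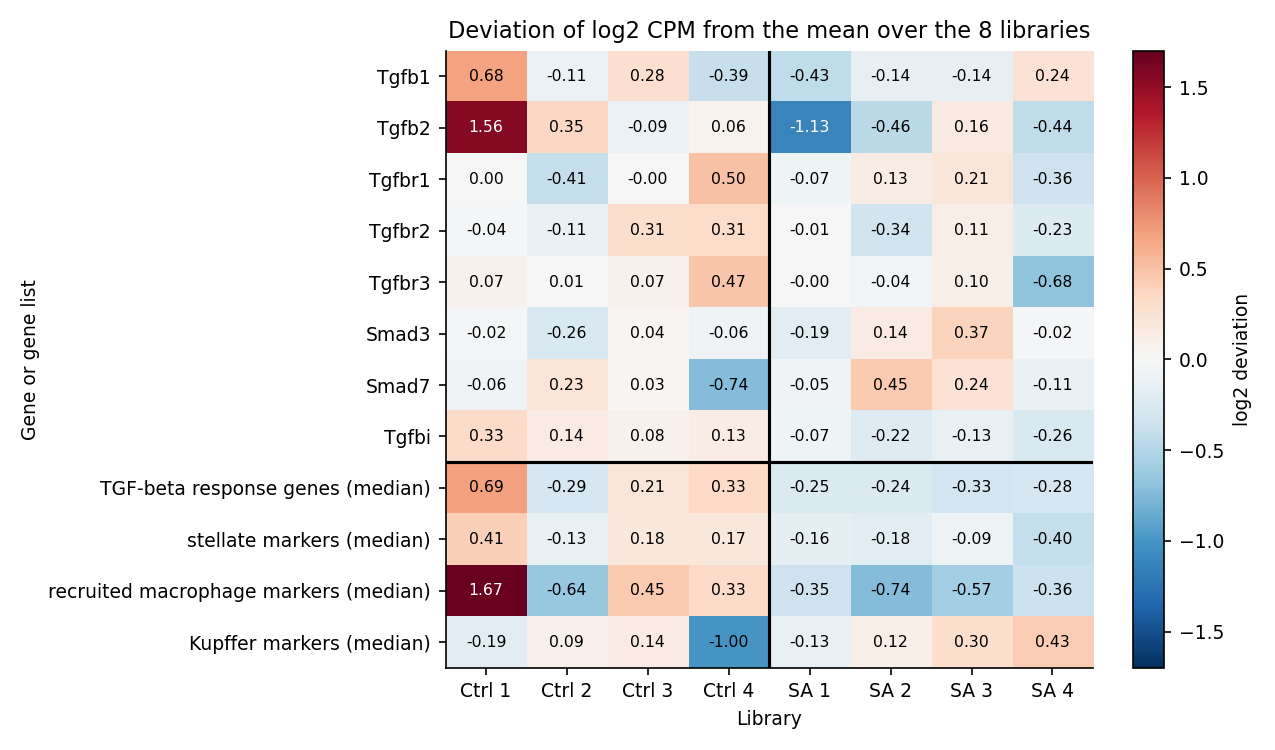
Deviation of log2 CPM from the gene's mean over the 8 libraries (colour and printed value) for each tested TGF-beta gene (upper rows) and the median over 4 gene lists (lower rows), by library (columns). Ctrl 1 is highest for Tgfb1 and Tgfb2 (0.68 and 1.56) and for the recruited macrophage markers (1.67), and Ctrl 4 is lowest for Smad7 (-0.74) and the Kupffer markers (-1.002).

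Levels can be compared between genes only per length, here as CPM per kilobase of GENCODE M21 exon. In Ctrl the order of these levels was Tgfbi (18.0), Tgfbr2 (10.9), Tgfbr1 (7.73), Tgfb1 (4.32), Tgfbr3 (3.37), Smad3 (3.34), Smad7 (3.20), Tgfb2 (0.324) and Tgfb3 (0.185). Only 2 steps of that order had no overlap between neighbours over the Ctrl libraries: Tgfbi (16.9 to 20.1) lay above Tgfbr2 (9.28 to 12.4), and Smad7 (2.03 to 4.01) above Tgfb2 (0.188 to 0.636). In SA the levels per kilobase were 14.2 for Tgfbi, 9.28 for Tgfbr2, 7.38 for Tgfbr1, 3.78 for Smad7, 3.74 for Smad3, 3.58 for Tgfb1, 2.74 for Tgfbr3, 0.148 for Tgfb2 and 0.109 for Tgfb3. Over the SA libraries Tgfbi (13.3 to 15.2) again lay apart from Tgfbr2 (7.89 to 10.8), Tgfbr1 (5.79 to 8.56) from Smad7 (3.16 to 4.65) and Tgfbr3 (1.86 to 3.21) from Tgfb2 (0.0811 to 0.227). In these counts Tgfb1 was the main ligand transcript in both groups. It was at 13.3 times the level per kilobase of Tgfb2 in Ctrl and 24.2 times in SA. Exons of Tgfb2 and Tgfb3 overlap genes of the opposite strand, which may affect their counts. Neither gene has an FPKM value, so the order of the ligands could not be checked in FPKM. The authors' FPKM table holds 7 of the 9 genes. It placed Tgfb1 second in Ctrl, at 13.1 ± 5.70 FPKM (SD, n = 4), ahead of Tgfbr2 at 10.3 ± 1.996 FPKM, with overlapping ranges.

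**Figure D4:**
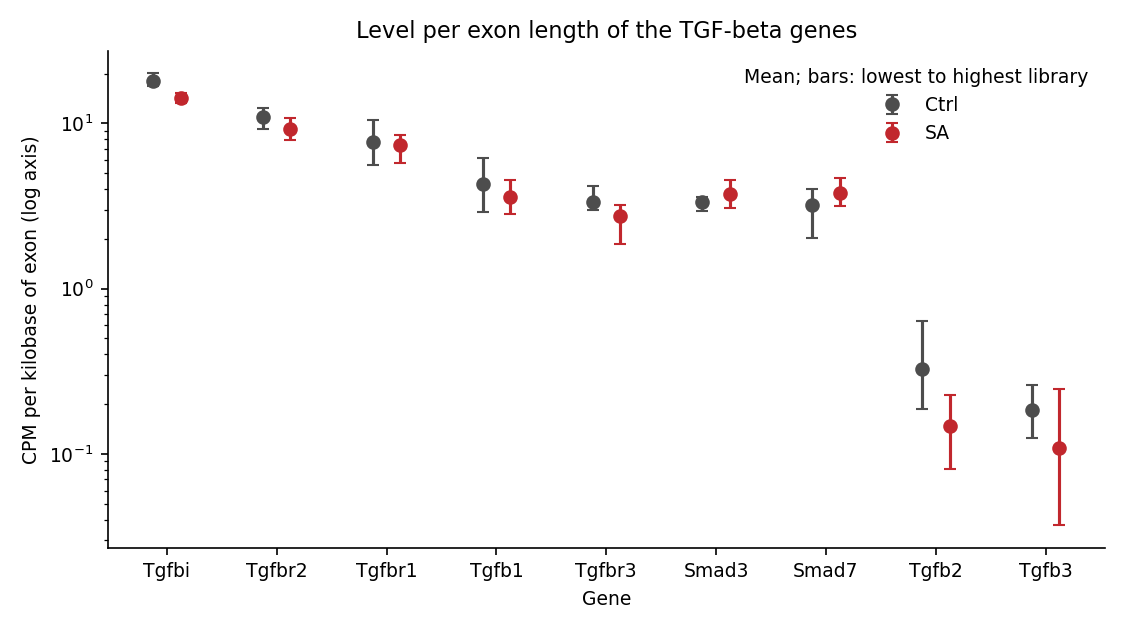
CPM per kilobase of exon (y axis, log scale) of the 9 TGF-beta genes (x axis) in Ctrl (grey) and SA (red), with the point at the mean and the bar from the lowest to the highest of 4 libraries. Tgfbi is at the top (18.0 in Ctrl, 14.2 in SA), and Tgfb2 and Tgfb3 lie below all other genes.

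By the root mean square difference between scaled log2 CPM profiles over the 8 libraries, the genes most like Tgfb1 among 11852 were Cd14 (0.265), Srgn (0.305) and Dcun1d5 (0.314). Those most like Tgfbi were Aqp7 (0.299), 2310030G06Rik (0.324) and Heyl (0.359). The likeness is of shape only: the log2 fold change of Aqp7 was -3.55, against -0.34 for Tgfbi. Among the TGF-beta genes themselves the closest pairs were Tgfb2 with Tgfbi (0.696) and Tgfbr1 with Tgfbr3 (0.714).

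The rest of the pathway was followed in 6 lists with 111 further genes, of which 91 could be tested and none passed with edgeR. Of the 91, 16 were lower and 2 higher at an unadjusted p under 0.05, where 3.29% of all genes were lower and 2.91% higher. Of these, 15 of the 16 lower and the 2 higher genes were in the list of TGF-beta response genes. That list was written with the lower matrix genes of these libraries already known, so these shares do not describe the pathway at large.

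Latency and activation genes make the complex that holds the ligand and release it from there. Of 14 tested, 12 had negative log2 fold changes (median -0.18) and 1 had an unadjusted p under 0.05. That gene was Thbs1, which encodes thrombospondin 1, an activator of latent TGF-beta. It was at 10.99, 3.24, 6.16 and 4.31 CPM in Ctrl 1 to 4 and 1.41, 2.13, 1.59 and 3.69 CPM in SA 1 to 4, a log2 fold change of -1.45 ± 0.41 (SE; adjusted p = 0.459 with edgeR). SA 4 lay inside the Ctrl range, and without Ctrl 1 the value was -1.02. Fbn1, which encodes the microfibril protein fibrillin 1, had -0.70. Ltbp3, whose protein binds the latent ligand, had -0.59 (-0.27 without Ctrl 1). Ltbp2, a relative whose protein is not known to bind the latent complex, had -0.75 (-0.49 without Ctrl 1). The more abundant Ltbp4 and Furin, the protease that cleaves the ligand precursor, had -0.15 and 0.11.

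Receptors and SMADs of the whole superfamily lay close to 0. Of 14 tested, 10 were negative and 4 positive, with a median of -0.07, and none had an unadjusted p under 0.05. Smad2, the partner of Smad3, had -0.02, and the shared Smad4 had 0.05. The smallest p values were those of Acvr1 (-0.26, but 0.0145 in log2 FPKM), Acvr2b (0.58), Eng (-0.17) and Smad5 (-0.10). Acvr1 and Acvr2b encode receptors of type I and type II, Eng an endothelial co-receptor and Smad5 a BMP mediator. Acvr2b had 0.36 without Ctrl 1 and 1.06 without Ctrl 3, and Smad5 had -0.02 without Ctrl 4.

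Regulators of the signal were evenly divided, with 9 negative and 8 positive of 17 tested and a median of -0.01, and none had an unadjusted p under 0.05. Fkbp1a, whose protein guards the type I receptor, had -0.33, and Pmepa1, a TGF-beta-induced inhibitor of SMAD activation, had -0.43. Without Ctrl 1 these were -0.21 and -0.24. Tgfbrap1, which encodes a receptor-associated protein, had 0.23. Smurf1, a ubiquitin ligase that works with Smad7, also had 0.23.

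Activin and bone morphogenetic protein (BMP) ligands and antagonists had 9 negative and 4 positive of 13 tested, with a median of -0.15. Fstl1, a secreted glycoprotein of the follistatin family, had the single unadjusted p under 0.05, at 18.2, 5.31, 9.47 and 18.5 CPM in Ctrl 1 to 4 and 5.51 to 7.65 CPM in SA, a log2 fold change of -1.04 ± 0.33 (SE; adjusted p = 0.556 with edgeR). Ctrl 2 was below all SA libraries. The BMP ligands Bmp4 and Gdf2 had 0.50 and -0.20, with Bmp4 at 0.29 without SA 3 and 0.82 without Ctrl 1, and Gdf2 at -0.11 without Ctrl 3. BMP response genes had 4 negative and 2 positive of 6 tested (median -0.11). Atoh8 was at -0.46, Id4 at -0.35, Id2 at -0.21 (1.42 in log2 FPKM) and Id1 at 0.11 (-0.16 without Ctrl 4). The Id2 groups overlapped in FPKM, with Ctrl at 1.30 to 138.8 FPKM and the SA libraries inside that range. With 1 library left out, Atoh8 ranged from -0.71 (without SA 2) to -0.24 (without Ctrl 2), Id4 from -0.68 (without SA 1) to -0.15 (without Ctrl 4) and Id2 from -0.33 (without Ctrl 3) to -0.07 (without Ctrl 1). Hamp and Hamp2 of this list, and Inhbe of the activin list, are listed at 0 in all 8 libraries of the count table but have values in the FPKM table.

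TGF-beta response genes, a list of 38 that includes collagens and other matrix genes, had the lowest median of the 6 pathway lists. Of 33 tested, 26 had negative and 7 positive log2 fold changes, with a median of -0.45, beside -0.01 for all genes. At an unadjusted p under 0.05, 15 were lower and 2 higher. DESeq2 called 4 lower (Postn, Lox, Igfbp3 and Tnc) and 1 higher (Junb), where it called 0.213% of all genes lower and 0.132% higher. The SA libraries lay below all Ctrl libraries for 5 of the 33 (Acta2, Igfbp3, Lox, Postn and Tnc) and above them for 2 (Junb and Klf10), where 1.46% and 1.66% of all genes did so. The list was written with the lower matrix genes of these libraries already known.

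Postn encodes periostin, a matricellular protein. It was at 28.2, 23.1, 18.3 and 23.3 CPM in Ctrl 1 to 4 and 11.6, 14.0, 11.3 and 14.0 CPM in SA 1 to 4, a log2 fold change of -0.87 ± 0.17 (SE; adjusted p = 0.227 with edgeR and 0.00523 with DESeq2). The groups were well apart in the counts. In the FPKM table they were not, with 0.847 to 9.46 FPKM in Ctrl and 0.683 to 5.09 FPKM in SA, a log2 difference of 0.0234.

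Igfbp3 encodes an insulin-like growth factor carrier that TGF-beta is known to induce. It was at 55.5, 38.1, 35.2 and 40.1 CPM in Ctrl 1 to 4 and 20.6, 28.97, 21.99 and 22.6 CPM in SA 1 to 4, a log2 fold change of -0.84 ± 0.18 (SE; adjusted p = 0.227 with edgeR and 0.0106 with DESeq2). Its groups were apart in the FPKM table too, with 18.2 to 32.2 FPKM in Ctrl and 10.6 to 16.5 FPKM in SA, a separation with SA below that 1.0% of all FPKM rows showed.

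Lox, which cross-links collagen, rested on 95 reads in Ctrl and 10 in SA and had a log2 fold change of -3.42 ± 0.67 (SE; adjusted p = 0.227 with edgeR and 0.00330 with DESeq2). Col3a1, a fibrillar collagen gene, was at 232.8, 50.7, 83.6 and 135.7 CPM in Ctrl 1 to 4 and 36.5 to 55.3 CPM in SA, a log2 fold change of -1.58 ± 0.36 (SE; adjusted p = 0.342 with edgeR). Ctrl 2 was inside the SA range, and without Ctrl 1 the value was -1.10.

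The following genes of that list were chosen after their values were seen. Junb and Klf10, transcription factor genes induced early by TGF-beta and by many other signals, ran against the matrix genes. Junb was at 43.60, 27.6, 28.9 and 17.9 CPM in Ctrl 1 to 4 and 54.4, 105.7, 54.0 and 43.86 CPM in SA 1 to 4, SA 4 just above Ctrl 1, with a log2 fold change of 1.13 ± 0.30 (SE; adjusted p = 0.393 with edgeR). Klf10 was at 16.3 to 26.0 CPM in Ctrl and 27.2 to 37.2 CPM in SA, with 0.59 ± 0.18 (SE; adjusted p = 0.490 with edgeR), and its groups did not overlap in FPKM either, at 6.21 to 9.79 in Ctrl and 12.0 to 15.8 in SA (SA above in 1.05% of all FPKM rows). The Junb groups did overlap in FPKM, at 11.1 to 33.8 in Ctrl and 33.5 to 79.6 in SA. Ccn2, connective tissue growth factor, had -0.75 (adjusted p = 0.662 with edgeR).

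**Figure D5:**
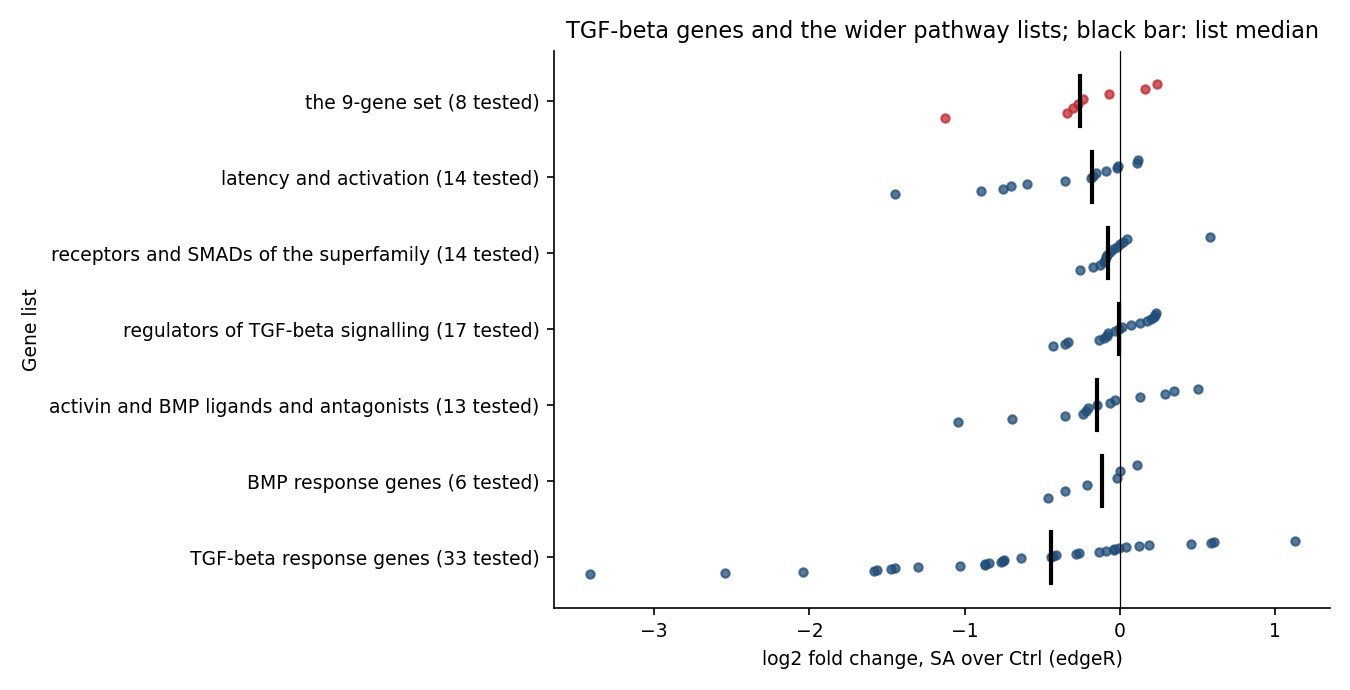
Log2 fold change of SA over Ctrl (x axis) of each tested gene (points) in the set of 9 TGF-beta genes (red) and 6 wider lists (blue), with the list median as a black bar. Of the lists shown, the response gene list has the lowest median (-0.45) and the widest range (-3.42 to 1.13), and receptors and regulators lie near 0.

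Markers of some other cell types were also lower in SA, and others were not. The median log2 deviation of the response genes was 0.69 in Ctrl 1, -0.29 in Ctrl 2, 0.21 in Ctrl 3, 0.33 in Ctrl 4 and -0.33 to -0.24 in SA, so that Ctrl 2 lay with the SA libraries. Recruited macrophage and monocyte markers, with 9 of 10 detected and Itgam at 0, summed to 217, 40.1, 91.9 and 103 CPM in Ctrl 1 to 4 and to 44.0 to 51.8 CPM in SA, also with Ctrl 2 low. Stellate cell markers, with 11 of 13 detected and Lrat and Tcf21 at 0, summed to 593 to 783 CPM in Ctrl and 521 to 576 CPM in SA. The largest part of that sum was Dcn, at means of 251 CPM in Ctrl and 158 CPM in SA. Of the 11 tested, 10 had negative log2 fold changes, from -0.09 (Hgf) to -1.29 (Lum), and Vipr1 had 0.40. Bile duct markers, with 7 of 8 detected and Tspan8 at 0, summed to 134.8, 35.2, 58.6 and 106.8 CPM in Ctrl 1 to 4 and 38.1 to 67.0 CPM in SA. Most of that sum was Spp1, at means of 70.8 CPM in Ctrl and 38.1 CPM in SA. The other bile duct markers tested had log2 fold changes of -1.26 (Krt19), -1.06 (Epcam), -0.85 (Prom1), -0.14 (Sox9) and 0.26 (Krt7). Kupffer cell markers, all 10 detected and all 10 with positive log2 fold changes (median 0.28), were at 322 to 677 CPM in Ctrl and 571 to 834 CPM in SA, and all 10 sinusoidal endothelial markers were detected, at 403 to 475 and 330 to 502 CPM. T and NK cell markers (10 of 10 detected) summed to 2.15 to 7.10 CPM in Ctrl and 8.13 to 13.6 CPM in SA. The 5 of them that could be tested had positive log2 fold changes, from 0.14 (Trbc2) to 2.78 (Cd8a). Of those too scarce to test, Cd3e and Klrb1c had lower means in SA, and Cd3d, Cd3g and Cd8b1 higher. Platelet markers (6 of 6) summed to 4.95 to 5.66 and 4.94 to 7.27 CPM, and mesothelial markers (5 of 5) to 173 to 414 and 122 to 245 CPM. Most of the mesothelial sum was Krt18, at means of 247 CPM in Ctrl and 157 CPM in SA. It therefore says little about the other markers, of which Msln and Upk3b had 0.16 and 0.04, and Wt1 and Gpm6a -1.45 and -1.17. The part of all these cell types in the values of Tgfb1, Tgfb2, Tgfbi and the response genes was not tested.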

How the data were processed

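RNA from frozen liver was sequenced after a NEBNext Ultra library preparation, per the labels' protocols. The authors deposited whole-number counts per gene for 8 libraries, not normalized, and a table of FPKM values computed by the authors for 9265 rows. The submitters' processing notes name StringTie 2.2.1, HISAT2 and FastQC 0.19.7, and the builds GRCm39 and mm10 without saying which served what. Which program counted reads was not given in the sources used here.

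Titles gave the groups. The main test was edgeR 4.0.16 (R 4.3.3), quasi-likelihood F, on counts, with TMM factors, filterByExpr (12358 genes left of 17681 with a count) and no block. Adjusted p-values are Benjamini-Hochberg values over all genes tested. The SE is the log2 fold change over the square root of F, and the 95% intervals use the same error. Levels are TMM-normalized CPM. The biological coefficient of variation was 22.6%. No 2 libraries of a group agreed within sampling noise (lowest chi-square per degree of freedom 33.2).

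The 9 genes, the 6 pathway lists, the 9 marker lists and the tests were chosen with earlier results of these data known. Named genes are the 9, the 4 with the smallest p of each pathway list and the 3 most like Tgfb1 and Tgfbi (mean CPM of at least 1), while Ltbp4, Furin, Smad2, Smad4 and the genes so marked in the text were chosen after their values were seen. A gene that the rule names is not reported here. Alternatives were DESeq2 1.42.0, limma-voom (limma 3.58.1), RLE and upper quartile factors, no filter, CPM of 1 or more in 4 libraries as the filter, log2 FPKM in limma with a pseudocount of 1 or 0.1, leaving out every library in turn, and a block for the replicate number. The level per length and the overlap in FPKM were added after seeing the data.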

Additional observations from a re-analysis of the deposited data

Results flagged for a closer look

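In 66 groups of 4 libraries (33 genes in Ctrl and in SA), 5 had a highest or lowest library whose gap to the nearest other exceeded the 95% critical value of Dixon's test, where chance gives about 1 in 20. Tgfb2 was at 3.68 CPM in Ctrl 1, while the rest of Ctrl lay at 1.09 to 1.52 CPM. Tgfbr3 was at 27.2 CPM in Ctrl 4, while the rest of Ctrl lay at 19.7 to 20.6 CPM. In FPKM, Tgfbr3 did not stand apart in Ctrl 4, at 5.15 within a Ctrl range of 4.03 to 5.54. Among the wider pathway, SA 4 was lowest for Smurf1, at 27.0 CPM against 37.4 to 38.0 CPM, and for Id2, at 92.8 CPM against 123.9 to 129.5 CPM in the other SA libraries. SA 1 was highest of its group for Col3a1, at 55.3 CPM against 36.5 to 38.9 CPM.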

How the results depend on the processing

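None of the 8 TGF-beta genes passed the adjusted threshold with edgeR or in any of the 18 alternatives (2 had an unadjusted p under 0.05 with edgeR). Over the alternatives Tgfbi ranged from -0.38 to -0.29, with an unadjusted p under 0.05 in 12 of 18, and Tgfb2 from -1.38 to -0.58, with 10 of 15. Tgfb1, Tgfb2, Tgfbr2, Tgfbr3, Smad3, Smad7 and Tgfbi kept their sign in all alternatives that gave a value. Tgfbr1 ranged from -0.19 to 0.11 with 1 library left out, turning positive without Ctrl 4 (0.11) and without SA 4 (0.03), and in FPKM (0.000835 with a pseudocount of 1, with or without the filter, and 0.00427 with 0.1). In those same FPKM analyses Acvr1 had 0.0145 and 0.0735, Id2 had 1.42 and 1.60 and Postn had 0.0234 and 0.0391. Id2 was at 1.30 to 138.8 FPKM in Ctrl (mean 88.6), and the SA libraries (mean 117.5 FPKM) lay inside that range. Id1 ranged from -0.16 (without Ctrl 4) to 0.34 with 1 library left out, also negative without SA 2 (-0.11). The causes were not tested.

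Over all genes the count past the threshold was 2 with edgeR, 8 without the low-count filter, 60 with DESeq2, 6 with the replicate block and 0 to 19 with 1 library left out (0 without Ctrl 4 and 19 without SA 1). Of the wider pathway lists, edgeR called 0 genes, DESeq2 5 and the fits with 1 library left out 0 to 1 (Lox, without SA 1). The labels do not say whether the same replicate numbers mark pairs. The correlation of deviations between libraries of 1 number was -0.02, -0.02, 0.22 and -0.22. Between different numbers it was -0.25 to 0.25, so these values cannot settle the question. With the replicate block Tgfbi had -0.34 (edgeR, adjusted p = 0.818) and Tgfb2 -0.98 (adjusted p = 0.971). Tgfb2 and Tgfb3 rested on 173 and 62 reads in all. Across 7940 genes, which are not independent replicates, library deviations in FPKM and counts correlated at 0.26 to 0.46.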

Other observations

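Of 14229 genes at 0 in all 8 libraries of the count table, 495 have values in the authors' FPKM table, which lists no 0. Among them are 3 genes of the pathway lists. Hamp, the hepcidin gene and a BMP target of hepatocytes, was at 93.3 to 683 FPKM in Ctrl and 30.6 to 270 FPKM in SA. Hamp2 was at 6.90 to 16.7 FPKM in Ctrl and 5.85 to 52.2 FPKM in SA. Inhbe, which encodes the activin subunit made mainly by hepatocytes, was at 3.17 to 51.4 FPKM in Ctrl and 0.469 to 34.7 FPKM in SA. The stellate cell markers Lrat and Tcf21, at 0 in the counts, were at 6.10 to 11.4 and 3.71 to 12.2 FPKM in Ctrl and 6.06 to 7.91 and 4.43 to 7.84 FPKM in SA. The groups overlapped for all 5 genes. A 0 in the count table does not by itself show a lack of transcript for these genes. Nor does a low count for some others. Clec4g, with 24 reads in all, was at 32.9 to 81.8 FPKM in Ctrl, and Inhbc, with 8 reads, at 8.10 to 55.6 FPKM in Ctrl.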
